A study of Mus musculus with 162 samples.

Results

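The genes described here are Lpl, Angptl4, Angptl8, Gpihbp1, Lmf1, Cd36, Vldlr and Fabp4, which encode lipoprotein lipase, the proteins that restrain, fold or carry it, and proteins that take up the fat it releases. They were chosen by symbol for their place in this pathway and are 8 of the 53686 genes in the count table, with 1 entry each. The study sequenced messenger RNA from 9 organs of 18 male C57BL/6J mice, adults 8 to 9 weeks old: olfactory bulb (OB), brain without cerebellum and brainstem (BRN), cerebellum (CBL), brainstem (BST), stomach (STM), liver (LIV), interscapular brown fat (iBAT), perigonadal white fat (pgWAT) and posterior subcutaneous white fat (psWAT). At each of 6 times, 3 mice either ate freely (0 h, the fed mice) or had been without food for 2, 8, 12, 18 or 22 h, always with water. All were killed in the same window soon after the lights went off, so the fasts of 2, 8 and 12 h began in the light phase and those of 18 and 22 h in the dark phase before it. The late fast (18 and 22 h) and the daytime fast (8 and 12 h) were each set against the fed mice and against each other, to ask in which organs the lipase system moves with the length of a short fast.

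Lipoprotein lipase sits on the wall of capillaries, where it splits the triglyceride of circulating lipoproteins so that the tissue behind can take up fatty acids. LMF1 is needed for the enzyme to fold in the cell that makes it, GPIHBP1 carries it across the endothelial cell to the vessel lumen, and ANGPTL4 and ANGPTL8 inhibit it. CD36 and the VLDL receptor bring fatty acids and remnant particles to the cell, and FABP4 binds the fatty acids inside it. ANGPTL4 is known for fasting and ANGPTL8 for the fed state, and both are thought to steer lipoprotein fat between white fat, brown fat and other organs.

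In the mouse genome build GRCm38, the gene for the enzyme, Lpl (ENSMUSG00000015568.16), lies at chr8:68880491-68907448 on the plus strand. The inhibitor genes are Angptl4 (ENSMUSG00000002289.16, chr17:33773750-33781830, minus strand) and Angptl8 (ENSMUSG00000047822.8, chr9:21835510-21837347, plus strand). Angptl8 sits inside Dock6 (chr9:21799860-21852635), which is read from the other strand, and no exon of the pair overlaps. Gpihbp1 (ENSMUSG00000022579.10) lies at chr15:75596628-75599481 and Lmf1 (ENSMUSG00000002279.19) at chr17:25579085-25662826, both on the plus strand. The uptake genes are Cd36 (ENSMUSG00000002944.15, chr5:17781690-17888801, minus strand), Vldlr (ENSMUSG00000024924.14, chr19:27216484-27254231, plus strand) and Fabp4 (ENSMUSG00000062515.3, chr3:10204088-10208576, minus strand). Their exons add up to between 865 bases for Angptl8 and 13589 for Lmf1, and levels of different genes are compared only after division by this length.

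The retained libraries, all but 5 of those sequenced, had total counts of 3045845 to 27801717 with a median of 8735554. Levels are CPM, the counts of a gene relative to the total of its library, scaled by trimmed-mean factors. Each organ carried the transcripts that define it: the summed hepatocyte markers lay at 73444 to 95044 CPM in the 18 liver libraries, led by Alb, and the summed neuron markers at 2455 CPM or more in each library of the 4 brain organs, led by Snap25. The adipocyte markers (Adipoq, Plin1, Cidec, Lipe and Retn) summed to at least 3727 CPM in each brown fat library.

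Some libraries of the fat depots stood apart from the rest of their organ. In perigonadal fat, replicate 2 at 22 h held 19762 CPM of epididymal markers and 1719 CPM of adipocyte markers, against at least 11330 CPM of adipocyte markers in the other 17 libraries. Epididymal markers, led by Crisp1, were also high in replicate 3 at 18 h (11868 CPM), replicate 2 at 2 h (2616 CPM) and replicate 3 at 22 h (600.4 CPM), and lay between 0 and 30.4 CPM in the fed mice. In subcutaneous fat the summed adipocyte markers ran from 173 CPM in replicate 1 at 22 h to 11668 CPM in replicate 1 at 8 h, and among the fed mice from 538 CPM in replicate 3 to 8718 CPM in replicate 1. Skeletal muscle markers in that depot reached 26669 CPM, and replicate 3 at 12 h held 3430 CPM of cerebellar neuron markers. In brown fat, both libraries at 22 h (replicates 2 and 3) were poor in long transcripts. Their slopes of log2 level, relative to the organ mean, on log2 exon length were -0.448 and -0.303 over 14243 genes, and the slopes of the other 15 brown fat libraries lay between -0.130 and 0.172. The calls of the late fast in brown fat, apart from those of cell type markers, and the correlations within it are therefore also given without these libraries. So are the differences in late response that use brown fat, and this alternative was chosen after seeing the data. The order of organs and the correlations over means of organ and time were computed only with these libraries included. Replicate 3 at 12 h of brown fat held 9548 CPM of skeletal muscle markers, led in the daytime fast by Acta1, against at most 3463 CPM in the other brown fat libraries. It also had the highest Lpl and the lowest Cd36 of the daytime fast there, and the part of the muscle markers in these values was not tested. In bulk tissue, fewer cells of a type and less RNA per cell cannot be told apart, and this holds for each gene of the series.

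Lpl, the enzyme, was a transcript of fat. Its mean level across all times was 10293 CPM in perigonadal fat (SD 3168, n = 18), 7733 in brown fat (SD 1756, n = 17) and 3275 in subcutaneous fat (SD 3270, n = 17). Stomach had 303 CPM (SD 75.7, n = 17), liver 47.3 (SD 21.3, n = 18), brain 26.7 (SD 6.93, n = 16) and brainstem 7.61 (SD 1.24, n = 18), and olfactory bulb and cerebellum had 1.89 and 1.57 CPM. The step between perigonadal and brown fat did not pass a paired permutation test across mice (adjusted p = 0.27), nor did the step between olfactory bulb and cerebellum (adjusted p = 0.103), while the other neighbours in the order of organs did. Over the 8 genes, 44 of 64 such steps passed and 20 did not, with p adjusted over all 64. The share of such steps that pass among all genes was not computed, so this count is not read as a trait of these genes. The smallest p the 100000 resamples can give was 1e-05.

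Among the inhibitors, the step below the highest organ passed for Angptl8 but not for Angptl4. Angptl4 was highest in perigonadal fat (358 CPM, SD 178), brown fat (295 CPM, SD 127) and liver (286 CPM, SD 119.2), and neither step between them passed (adjusted p = 0.664 and 0.905). Subcutaneous fat followed with 115.3 CPM (SD 144.8), and the olfactory bulb, with 9.32 CPM (SD 2.23), led the stomach and the other brain organs, which lay between 2.099 and 5.58 CPM. Angptl8 was first a liver transcript, with 337 CPM (SD 219.8), followed by brown fat (60.9, SD 74.2), perigonadal fat (46.4, SD 88.6) and subcutaneous fat (17.8, SD 26.7). The SD was above the mean in each of the 3 fat depots. The stomach had 2.65 CPM of Angptl8, and its step from subcutaneous fat did not pass (adjusted p = 0.0975). Of the brain organs' libraries, 17 of 18 in olfactory bulb, 15 of 16 in brain, 16 of 18 in cerebellum and 18 of 18 in brainstem held no Angptl8 count at all.

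Gpihbp1, the carrier made by capillary endothelium, was highest in brown fat, with 170 CPM (SD 115.1), then perigonadal fat (91.8, SD 34.03), subcutaneous fat (48.3, SD 47.98), liver (15.2, SD 4.39) and stomach (6.53, SD 2.07). Each of those steps passed. In the 4 brain organs Gpihbp1 was close to absent, with between 1 and 6 counts in all libraries of an organ together. Lmf1, the folding factor, was the most evenly spread of the genes: liver had 105.1 CPM (SD 13.9), brown fat 47.6 (SD 9.08), and the remaining organs between 9.33 and 23.4. The steps from brain to subcutaneous fat and on to brainstem did not pass for Lmf1 (adjusted p = 0.982 and 1).

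Of the uptake genes, Cd36 and Fabp4 had their highest means in the fat depots, as Lpl did. Cd36 had 4773 CPM in perigonadal fat (SD 1426), 3433 in brown fat (SD 771), 846 in subcutaneous fat (SD 929), 96.3 in stomach (SD 36.5) and 21.6 in liver (SD 7.84), and 0.868 to 1.82 in the brain organs. Fabp4 had 15599 CPM in perigonadal fat (SD 6536), 13064 in brown fat (SD 4328), 4354 in subcutaneous fat (SD 4667), a median of 93.13 in stomach (SD 37.9), 13.6 in liver (SD 6.54) and under 1 CPM in the brain organs. For both, the step between perigonadal and brown fat did not pass (adjusted p = 0.0926 for Cd36 and 0.952 for Fabp4). At 0 h alone the mean of Fabp4 was higher in brown fat (12482 CPM) than in perigonadal fat (11088 CPM), and that of Angptl4 in liver (198.0 CPM) than in perigonadal fat (195.2 CPM), with overlap between the libraries. Vldlr differed from both: brown fat led with 356 CPM (SD 85.0), but the cerebellum was next with 135.6 (SD 8.73), ahead of perigonadal fat with a median of 101.3, brainstem with 83.9 (SD 7.41), olfactory bulb with 65.8 (SD 8.00), brain with 65.7 (SD 20.1) and subcutaneous fat with 57.03 (SD 45.0). The liver had the least Vldlr, 1.68 CPM (SD 1.35).

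Per kilobase of exon, the level in perigonadal fat ran from 3475 CPM for Fabp4 through 1329 for Cd36 and 982 for Lpl to 101.2 for Angptl4, 53.6 for Angptl8, 35.95 for Gpihbp1, 10.1 for Vldlr and 1.72 for Lmf1. In liver the same scale put Angptl8 first, at 389 CPM per kilobase, and Angptl4 next, at 80.6, with Lmf1 at 7.74 and Lpl at 4.51. In brown fat Gpihbp1 stood at 66.6, beside 70.4 for Angptl8 and 83.3 for Angptl4.

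**Figure D1:**
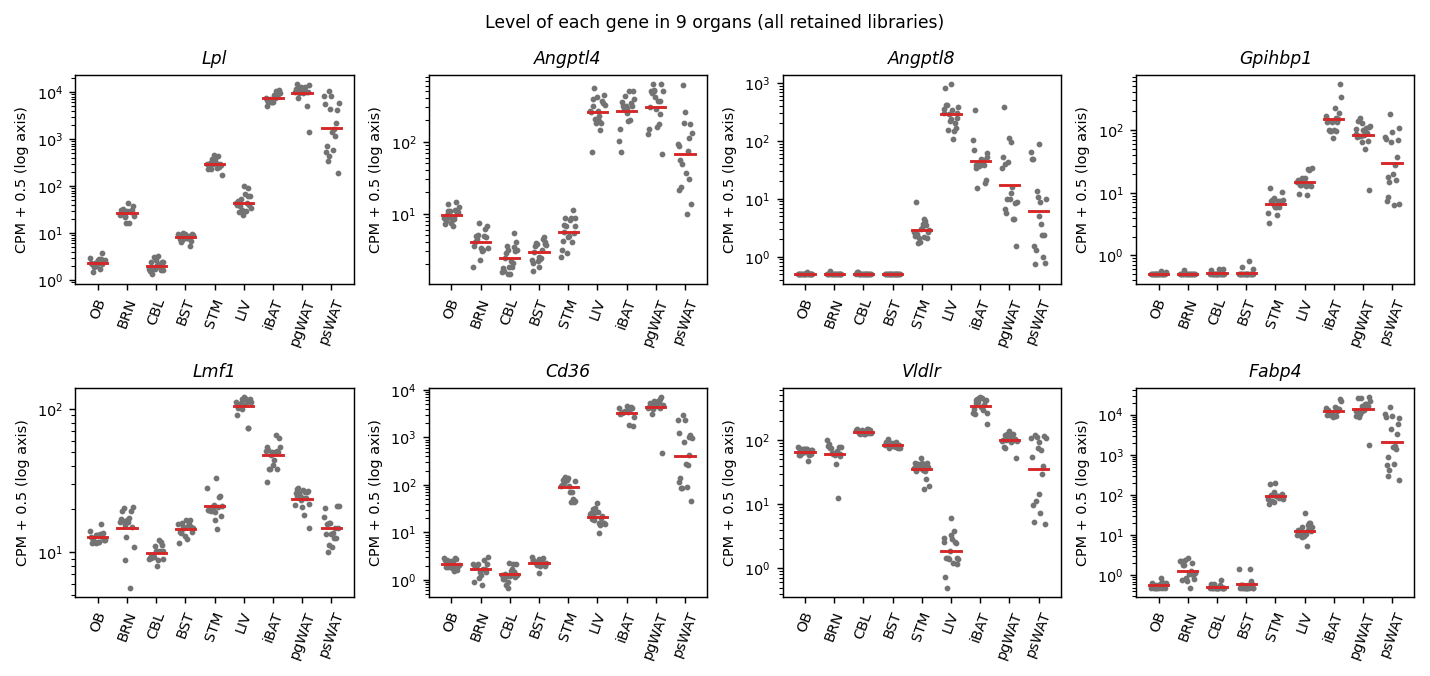
Level of each gene in each retained library by organ, as CPM plus 0.5 on a log axis, with points for libraries and a red line for the mean of the log values. Lpl, Cd36 and Fabp4 peak in the fat depots, Angptl8 in liver at a mean of 337 CPM, and Vldlr has its next highest level after brown fat in the cerebellum, at 135.6 CPM.

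Over the 54 means of organ and time, the genes most like Lpl among 21598 were Fabp4 (Pearson r = 0.983), Cidec (0.971) and Cd36 (0.969), and those most like Fabp4 were Cidec (0.994), Cd36 (0.990) and Cfd (0.986). Cidec (0.991), Fabp4 (0.990) and Cldn15 (0.982) were most like Cd36. Gpihbp1 was most like Cyp4b1 (0.989), Cd300lg (0.983) and Tspo (0.983), while Angptl4 was most like Cdo1 (0.970), Mrap (0.966) and Pfkfb1 (0.965). For Angptl8 the nearest were Mlxipl (0.971), the carbohydrate response factor, C1rl (0.971) and Apoc1 (0.964), and for Lmf1 they were Pecr (0.979), Ccs (0.973) and Nit2 (0.964). Vldlr was nearest to Ppip5k1 (0.947), Slc24a3 (0.947) and Tmem65 (0.942). These correlations are descriptions across organs that share mice, and differences between organs were not separated in them from changes with time.

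Within the organ where each gene was highest, other neighbours appeared. Across the 18 perigonadal fat libraries Lpl was most like Dhdh (0.987), Celf2 (0.979) and Fads3 (0.978), Cd36 most like Cat (0.991), Car3 (0.989) and Ghr (0.988), and Fabp4 most like Pla2g16 (0.991), Fam213a (0.988) and Gsto1 (0.983). Angptl4, in the same libraries, was most like Ranbp9 (0.865), Tppp (0.823) and Ccl9 (0.806). All these perigonadal values include replicate 2 at 22 h, the library poor in adipocyte markers. They were not computed without it, and its part in them was not tested. Across the 18 liver libraries Angptl8 was most like Mrps18b (0.813), Fem1a (0.771) and Hic1 (0.769), and Lmf1 most like 1110065P20Rik (0.825), Gm5566 (0.810) and Bmp7 (0.810). Across the 17 brown fat libraries Gpihbp1 was most like Fkbp7 (0.971), Gstt2 (0.970) and S100a13 (0.969), and Vldlr most like Tppp (0.943), 2010007H06Rik (0.941) and Aox1 (0.930). Among the genes themselves, Lpl and Cd36 had r = 0.904 in perigonadal fat, where they share the library with few adipocyte markers. In brown fat Gpihbp1 had r = 0.955 with Fabp4 and -0.789 with Vldlr, and 0.877 and -0.603 over the 15 libraries without the 22 h ones. Over these 15, Gpihbp1 was most like Fkbp7 (0.938), Derl2 (0.905) and Gstt2 (0.895), and Vldlr most like Slc35e1 (0.944), 2010007H06Rik (0.915) and Tppp (0.911). Angptl4 and Angptl8 had r = -0.257 in liver.

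Angptl4 was higher in fasted than in fed mice in brown fat and, in the late fast, in cerebellum, brainstem and stomach, and Angptl8 was lower in fasted brown fat. These are levels scaled within each organ, so they differ from the levels scaled over all libraries given above. In brown fat, Angptl4, an inhibitor of the lipase that responds to fatty acids through PPAR receptors, stood at 71.6, 106.5 and 52.4 CPM in the fed mice. After 2 h it was 255, 229 and 219 CPM, after 8 h 319, 224 and 210.5, after 12 h 170.4, 137.8 and 357, after 18 h 134.3, 248 and 218, and after 22 h 387 and 278. No fasted library of brown fat overlapped with the fed ones.

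Angptl4 in brown fat thus rose in both comparisons with the fed mice, which share those mice. Late against fed, the log2 fold change was 1.75 (SE 0.317, adjusted p = 0.0029, higher in 5 of 5 libraries) in edgeR's quasi-likelihood test with Benjamini-Hochberg adjustment. Daytime against fed it was 1.62 (SE 0.307, adjusted p = 0.0160, higher in 6 of 6), and the 2 h libraries had 1.61 (SE 0.336). Late against daytime gave 0.13 and did not pass (adjusted p = 0.722). Without both 22 h libraries the late value for Angptl4 was 1.37 and no longer passed (adjusted p = 0.103). The daytime value was 1.56 without fed replicate 1 (adjusted p = 0.0884) and 1.40 without fed replicate 3 (adjusted p = 0.102). Over 26 alternatives each, the adjusted p of Angptl4 ran from 1.36e-06 to 0.103 late against fed and from 2.07e-05 to 0.102 daytime against fed.

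In the cerebellum Angptl4 was scarce but separated the groups: the fed mice had 1.29, 1.496 and 1.35 CPM and the late fast 1.99, 3.61 and 5.94 CPM at 18 h and 3.13, 4.48 and 3.14 at 22 h. After 2 h it was 2.49, 3.02 and 3.82 CPM, and in the daytime fast 3.25, 1.195 and 1.68 CPM at 8 h and 1.21, 2.14 and 1.70 at 12 h. So the 2 h and late libraries all lay above the fed ones, and the daytime libraries overlapped with them. In the brainstem, Angptl4 in fed mice was 1.95, 1.23 and 1.70 CPM, after 2 h 2.71, 3.30 and 3.78, after 8 h 3.58, 1.82 and 2.15, after 12 h 1.45, 2.09 and 2.104, after 18 h 2.92, 4.42 and 4.80, and after 22 h 3.68, 4.07 and 3.52. There too the 2 h and late libraries were all higher than the fed ones, and the daytime ones overlapped with both groups. Late against fed, Angptl4 rose by 1.42 in the cerebellum (SE 0.291, adjusted p = 0.0334, higher in 6 of 6) and by 1.25 in the brainstem (SE 0.256, adjusted p = 0.0453, higher in 6 of 6). Without replicate 2 or replicate 3 of every time the adjusted p was 0.130 and 0.300 in cerebellum (1.44 and 1.23) and 0.519 and 0.175 in brainstem (1.03 and 1.24). The fed cerebellum libraries were also the deepest, with 20396385 to 22071004 counts against 6487419 to 9487976 in the fasted ones. The endothelial markers of the cerebellum, led by Flt1, summed to 65.95 to 84.86 CPM in fed mice and 74.02 to 150.2 in the late fast, 5 of 6 late libraries lying above the fed ones. Of the 10 markers edgeR called 0 (median 0.61, against -0.01 over all genes), with 7 at an unadjusted p under 0.05 and 2 called by DESeq2. The part of depth and of these markers in the Angptl4 values was not tested. Over all alternatives the adjusted p of Angptl4 ran from 8.58e-06 to 0.300 in cerebellum and from 0.00177 to 0.519 in brainstem.

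Late against daytime, Angptl4 also rose in the brainstem, by 0.84 (SE 0.195, adjusted p = 0.0465, above all daytime libraries in 4 of 6), a call lost without replicate 2 (0.73, adjusted p = 0.368) or replicate 3 (0.78, adjusted p = 0.318), with a range of 0.00831 to 1 over its alternatives. In the cerebellum that comparison gave 0.99 for Angptl4 (adjusted p = 0.0702), and 1.36 (adjusted p = 0.0163) without replicate 1. In the olfactory bulb Angptl4 was 9.55, 7.91 and 8.80 CPM in fed mice, 11.2, 12.3 and 15.8 after 2 h, 9.84, 12.5 and 8.10 after 8 h, 9.10, 7.34 and 9.14 after 12 h, 10.4, 13.2 and 17.1 after 18 h, and 12.3, 11.6 and 14.1 after 22 h. The order was the same as in cerebellum and brainstem: 2 h and late libraries above all fed ones, daytime libraries overlapping. Angptl4 rose from daytime to late fast in the bulb by 0.50 (SE 0.125, adjusted p = 0.00628, above all daytime libraries in 3 of 6), and without replicate 3 it was 0.30 (adjusted p = 0.150, range over alternatives 0.000164 to 1). In this comparison 29.3% of all genes passed, and 5 of 6 late bulb libraries had a slope of level on exon length below every daytime one, whose part in the Angptl4 call was not tested. Late against fed it was 0.58 and did not pass (SE 0.157, adjusted p = 0.0537, higher in 6 of 6). In the bulb the fed mice were sequenced on lane 3 and the late mice on lane 4, while all cerebellum libraries shared lane 3 and all brainstem libraries lane 4. In the brain proper, Angptl4 was 1.40, 3.45 and 3.87 CPM in fed mice and 3.15 to 7.42 in the late fast (median 5.88), and 4 of 5 late libraries were above the fed ones (log2 fold change 0.95, adjusted p = 0.230).

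In the stomach Angptl4 was 1.74, 2.22 and 3.39 CPM in fed mice, 4.28, 5.35 and 6.92 after 2 h, 5.197, 1.955 and 3.55 after 8 h, 3.78 and 6.86 after 12 h, 7.23, 3.16 and 9.20 after 18 h, and 4.23, 5.35 and 7.15 after 22 h. All fasted libraries but 1 at 8 h and 1 at 18 h were above the fed ones. Late against fed it rose by 1.31 (SE 0.411, adjusted p = 0.0415, higher in 5 of 6). The stomach call for Angptl4 was lost in 12 of 27 alternatives, beside 7 of 14 for the brainstem call late against fed. In the stomach it was lost without any single fed library (adjusted p = 0.141, 0.0830 and 0.0767 for replicates 1, 2 and 3), without replicate 3 at 8 h (0.0514), replicate 1 at 18 h (0.0725), replicate 3 at 18 h (0.0883) or replicate 3 at 22 h (0.0730). Fed stomachs were sequenced on lane 5 and late ones on lane 6, and with the lane as a factor Angptl4 gave 1.33 (adjusted p = 0.750), the highest of a range from 0.0144.

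The liver and white fat, where Angptl4 is abundant, gave no call for it. Liver Angptl4 was 161.5 and 45.7 CPM in fed replicates 2 and 3, with replicate 1 close to replicate 2, and 197, 234.7 and 345 after 2 h, and the late fast reached 286 with a median of 208. The late libraries overlapped with the fed ones, 4 of 6 lying above (0.57, SE 0.426, adjusted p = 0.435). With the lane as a factor, since fed livers were on lane 1 and late livers on lane 2, the liver value of Angptl4 was -0.56. Over 28 alternatives its adjusted p ran from 0.00128, the single call, with no filter on low counts, to 1. In perigonadal fat Angptl4 was 136.9, 161.9 and 335 CPM in fed mice, 531, 509 and 659 after 2 h, 173 to 553 in the daytime fast (median 424), and 73.3 to 672 in the late fast (median 332). The 2 h libraries were all above the fed ones (1.42, SE 0.578), and late against fed gave 0.74 (adjusted p = 0.396). In subcutaneous fat Angptl4 ran from 12.0 to 815 CPM, and fed mice had 129.2, 112.4 and 25.9.

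Whether the late response of Angptl4 differs between organs was tested for pairs of the metabolic organs. In edgeR, brown minus perigonadal fat gave 1.00 (SE 0.602, adjusted p = 0.529), brown minus subcutaneous fat 1.40 (SE 0.904, adjusted p = 0.376), and liver minus brown fat -1.20 (SE 0.530, unadjusted p = 0.0326, adjusted p = 0.111). None of these differences passed. Restricted to 18 h against fed mice in both organs, with no 22 h library of brown fat, the differences in Angptl4 were 0.93 (adjusted p = 0.728), 0.77 (adjusted p = 0.940) and -1.20 (adjusted p = 0.286). The response was not compared between the brain organs or the stomach and other organs.

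Angptl8, whose product restrains the lipase after meals, went the other way in brown fat. There it was 72.0, 49.1 and 244 CPM in fed mice, 27.5, 24.6 and 11.4 after 2 h, 29.5, 25.8 and 26.3 after 8 h, 32.9, 30.8 and 31.9 after 12 h, 25.5, 13.0 and 14.3 after 18 h, and 47.7 and 37.5 after 22 h. All fasted libraries lay below the lowest fed one, although fed replicate 3 was far above the other fed mice. Angptl8 fell late against fed by 2.15 (SE 0.415, adjusted p = 0.00485, lower in 5 of 5) and daytime against fed by 2.05 (SE 0.385, adjusted p = 0.0205, lower in 6 of 6), with -2.52 (SE 0.492) at 2 h. Without the 22 h libraries the late value of Angptl8 was -2.79 (adjusted p = 0.0399). Without fed replicate 3 the late value was -1.14 and still passed (adjusted p = 0.0184), while the daytime value was -1.04 and did not (adjusted p = 0.136). The daytime call was also lost without replicate 1, 2 or 3 at 8 h (adjusted p = 0.0552, 0.0713 and 0.0537). Over 26 alternatives the adjusted p of Angptl8 ran from 8.18e-06 to 0.0399 late against fed, always passing, and from 2.21e-05 to 0.136 daytime against fed.

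In the white depots Angptl8 separated late from fed libraries without a call. In perigonadal fat the fed mice had 36.7, 56.8 and 412 CPM, the 2 h mice 41.9, 6.69 and 5.32, the daytime mice 10.2, 45.7 and 120.6 at 8 h and 10.4, 101.9 and 13.2 at 12 h, and the late mice 16.6, 4.39 and 4.30 at 18 h and 8.35, 1.16 and 9.00 at 22 h. Every late library lay below every fed one, while 3 of 6 daytime libraries did. The fed mice of this depot were sequenced on lane 5 and the late mice on lane 6. The late libraries also had slopes on exon length of -0.148 to 0.0639, all below the fed ones (0.0662 to 0.157), and the part of this in the Angptl8 values was not tested. The fold change of Angptl8 was -4.56 late against fed (SE 1.06, adjusted p = 0.0832, lower in 6 of 6), -4.30 (adjusted p = 0.0739) without the library poor in adipocyte markers, and -2.71 (adjusted p = 0.470) without fed replicate 3. In subcutaneous fat Angptl8 was 87.1, 63.7 and 59.9 CPM in fed mice, 1.28, 0.324 and 1.01 after 2 h, 17.6, 13.2 and 112.9 after 8 h, 5.66, 10.3 and 4.70 after 12 h, 2.36, 0.645 and 2.38 after 18 h, and 0.336 and 13.2 after 22 h. All but 1 of the fasted libraries, replicate 3 at 8 h, lay below the fed ones. Late against fed gave -4.36 (SE 0.892, adjusted p = 0.936, lower in 5 of 5), and -6.47 (adjusted p = 0.287) without replicate 3 at 22 h. DESeq2 called the late value of Angptl8 in both depots (-4.54 and -4.36). Over the alternatives its adjusted p ran from 0.00232 to 0.690 in perigonadal and from 0.00276 to 1 in subcutaneous fat.

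In the liver, its main organ, Angptl8 was 223, 187.5 and 513 CPM in fed mice, 263, 256 and 97.1 after 2 h, 178, 130.7 and 149.7 after 8 h, 584, 210.3 and 69.7 after 12 h, 91.1, 136.2 and 100.7 after 18 h, and 188.5, 160 and 229.6 after 22 h. The groups overlapped, with 4 of 6 late libraries below the fed ones (-1.08, SE 0.522, adjusted p = 0.207). Over 28 alternatives the adjusted p of Angptl8 in liver ran from 1.96e-14, with no filter on low counts, to 0.708, and the other 27 made no call. Replicate 3 was the highest fed library of Angptl8 in liver, brown fat, perigonadal fat and stomach (7.51 CPM, against 1.89 and 1.48), and without it the liver value was -0.50. Between organs the late response of Angptl8 was not shown to differ in edgeR: brown minus perigonadal fat gave 2.41 (adjusted p = 0.435), brown minus subcutaneous fat 2.28 (unadjusted p = 0.0227, adjusted p = 0.181) and liver minus brown fat 1.04 (adjusted p = 0.314). In edgeR with 18 h alone in both organs and no 22 h library of brown fat, these differences in Angptl8 were 1.55 (adjusted p = 0.789), 2.54 (unadjusted p = 0.0288, adjusted p = 0.890) and 1.24 (adjusted p = 0.439).

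**Figure D2:**
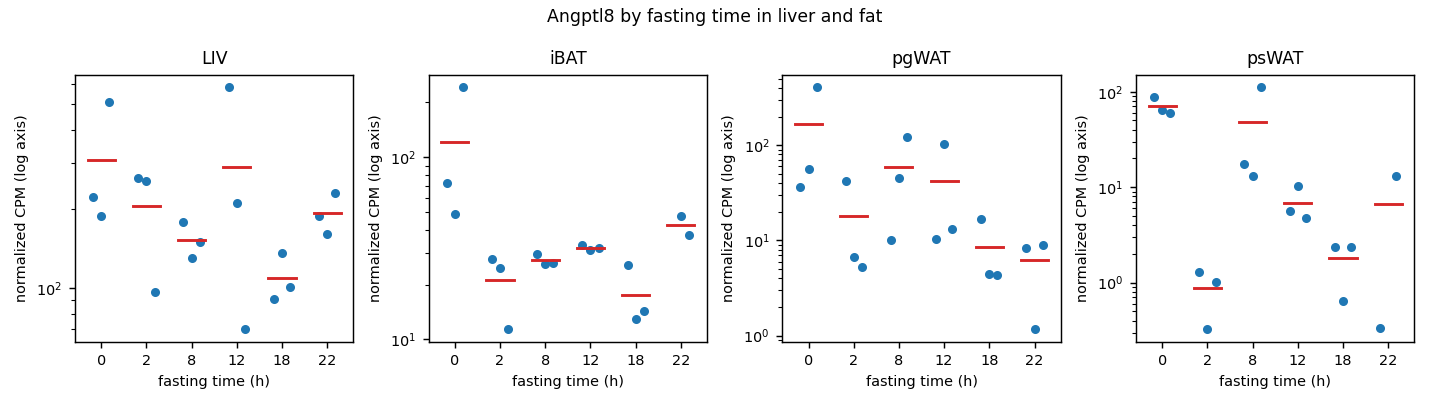
Normalized CPM of Angptl8 on a log axis by hours without food in liver, brown fat and both white depots, with points for libraries and a red line for the mean. In brown fat the 14 fasted libraries lie below the lowest fed one (49.1 CPM), and in subcutaneous fat the 2 h libraries lie at 1.28 CPM or less.

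Because the adipocyte content of the fat samples varied, the genes were also set against the adipocyte markers of the same library, as a description without a test. Each log2 level was taken relative to the mean of the log2 levels of the 5 markers. On that scale Angptl4 was above every fed library in 12 of 14 fasted libraries of brown fat, 12 of 15 of perigonadal fat and 9 of 14 of subcutaneous fat. Angptl8 was below every fed library in 14 of 14, 13 of 15 and 12 of 14. Fabp4 in perigonadal fat was above every fed library in 6 of 6 late libraries on this scale, and in brown fat in 1 of 5, with 1 below. Lpl in perigonadal fat was below every fed library in 4 of 6 late and 10 of 15 fasted libraries, and above in 1 and 3. Lpl in brown fat was above every fed library in 2 of 5 late libraries on this scale, against 5 of 5 without it. Gpihbp1 in brown fat had 2 of 5 late libraries above and 2 below every fed one, and of all 14 fasted ones 3 above and 9 below. In subcutaneous fat Gpihbp1 was above every fed library in 11 of 14 fasted libraries and below in 0. Of all 14 fasted libraries of brown fat, Fabp4 was below every fed one in 6 and above in 1. The markers themselves moved with fasting: in brown fat their sum was 3738 to 3843 CPM in fed mice and 4554 to 5604 in the late fast. Late against fed, 2 of 5 rose (median log2 fold change 0.60, against -0.07 over all genes), where 20.9% of all genes passed.

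Lpl itself was 5184, 4831 and 3715 CPM in brown fat of fed mice. It was 4413, 4894 and 5425 CPM after 2 h, 4470.0, 4316 and 4253 after 8 h, 5822, 5323 and 7307 after 12 h, 5435, 7209 and 6519 after 18 h, and 8334 and 6954 after 22 h. All late libraries lay above the fed ones, and the 2 h and 8 h libraries overlapped with them. Lpl rose late against fed by 0.61 (SE 0.165, adjusted p = 0.0178, higher in 5 of 5) and late against daytime by 0.43 (SE 0.134, adjusted p = 0.0292), where 1 of 5 late libraries was above all daytime ones. Without the 22 h libraries the values of Lpl were 0.47 (adjusted p = 0.339) and 0.30 (adjusted p = 0.846). The late call against fed mice was also lost without fed replicate 2 (0.64, adjusted p = 0.0603), fed replicate 3 (0.48, adjusted p = 0.0697) or replicate 2 at 22 h alone (0.54, adjusted p = 0.0624). The call against the daytime fast was lost without any of 6 single libraries, replicates 2 and 3 at 8 h, replicate 2 at 12 h, replicates 2 and 3 at 18 h and replicate 2 at 22 h (0.37 to 0.43, adjusted p = 0.0583 to 0.130). Over the alternatives the adjusted p of Lpl ran from 0.00166 to 1 late against fed and from 0.00537 to 1 late against daytime.

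In perigonadal fat Lpl was 10722, 12264 and 12830 CPM in fed mice and ranged from 7884 to 15443 over the 2 h and daytime fasts and from 1572 to 15134 in the late fast, where the lowest was the library poor in adipocyte markers. These groups overlapped (-0.32, adjusted p = 0.717). In subcutaneous fat, where the adipocyte markers varied widely, Lpl was 11146, 7428 and 671 CPM in fed mice. In the late fast it was 1456, 2780 and 5387 at 18 h and 234.7 and 7974 at 22 h (-0.82, adjusted p = 0.979). The part of the adipocyte markers in these values was not tested. Brown minus perigonadal fat gave a difference in the late response of Lpl of 0.93 (adjusted p = 0.485), and liver minus brown fat -0.31 (adjusted p = 0.572). With 18 h alone and no 22 h library of brown fat they were 0.74 (adjusted p = 0.755) and 0.08 (adjusted p = 0.945) for Lpl. In the other organs Lpl showed no call, although 1 of 25 alternatives called it in liver late against daytime, with no filter on low counts (0.37, adjusted p = 0.0371, against 0.468 with the filter). Its levels were, in liver, 24.8 to 29.7 CPM in fed mice and 20.6 to 59.6 in the late fast, and in stomach 191.6 to 258 and 149.1 to 386.

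Gpihbp1, which holds the lipase in the capillary, was 119.6, 98.3 and 103.4 CPM in fed brown fat. It was 74.1, 71.9 and 72.9 after 2 h, 97.4 and 52.5 in replicates 1 and 2 after 8 h with replicate 3 between them, 158, 70.4 and 108.6 after 12 h, 90.9, 109.2 and 133.2 after 18 h, and 419 and 242.5 after 22 h. Both 22 h libraries were far above the rest, while the 18 h libraries overlapped with the fed ones. Late against fed Gpihbp1 rose by 0.84 (SE 0.255, adjusted p = 0.0288, above all fed libraries in 3 of 5) and late against daytime by 1.08 (SE 0.206, adjusted p = 0.00939, above all daytime libraries in 2 of 5). Both calls rested on the 22 h libraries, which were sequenced on lanes 1 and 3 with no other retained library of brown fat, so that lane and time cannot be told apart for them. Without them the values were 0.04 (adjusted p = 0.975) and 0.29 (adjusted p = 0.866). Without replicate 2 at 22 h alone they were 0.61 (adjusted p = 0.129) and 0.86 (adjusted p = 0.0659). The call against fed mice was lost also without fed replicate 2 (0.77, adjusted p = 0.129), fed replicate 3 (0.81, adjusted p = 0.0701) or replicate 3 at 18 h (0.76, adjusted p = 0.0602). Over the alternatives the adjusted p of Gpihbp1 ran from 0.000912 to 1 late against fed and from 6.41e-05 to 0.866 late against daytime.

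Endothelial markers did not share that direction. Their sum in brown fat was 736 to 1497 CPM in fed mice (median 1035.5, led by Kdr) and 502 to 753 in the late fast (median 710, led by Cdh5), with 502 and 531 at 22 h. Late against fed, 7 of 10 fell (median -0.80), where 20.9% of all genes passed. These calls include the 22 h libraries poor in long transcripts and were not made without them. The part of the endothelial markers in the values of Gpihbp1 was not tested. Perigonadal Gpihbp1 was 84.8 to 112.1 CPM in fed mice and 11.5 to 127 in the late fast, with the lowest value again in the library poor in adipocyte markers (-0.10, adjusted p = 0.924). The late response of Gpihbp1 was not shown to differ between brown and perigonadal fat (0.94, adjusted p = 0.535), and with 18 h alone and no 22 h library of brown fat the difference was 0.07 (adjusted p = 0.987).

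Lmf1 passed in no organ and no comparison of the fit over all retained libraries. Of 25 alternatives in liver late against daytime, 1 called it, without replicate 1 at 18 h (-0.27, adjusted p = 0.0379, against -0.16 and 0.322 with it). In liver it was 56.1 to 68.7 CPM in fed mice, 60.2 to 74.4 in the daytime fast and 45.0 to 74.7 in the late fast, and in brown fat 22.02 to 38.7, 28.1 to 45.4 and 27.03 to 47.4. All these groups overlapped. The lowest p for Lmf1 late against fed was in the cerebellum, where 5 of 6 late libraries were above the fed ones (0.28, SE 0.111, adjusted p = 0.222).

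Cd36, the main fatty acid translocase of fat cells, was not called in brown fat, with 2857, 2266 and 2382 CPM in fed mice, 2684, 3232 and 2942 at 18 h, and 1365 and 1947 at 22 h. The 22 h libraries lay below every fed one and 2 of 3 at 18 h above. Late against fed gave -0.18 (adjusted p = 0.567), and 0.23 (adjusted p = 0.798) without the 22 h libraries. In the stomach it was 80.1, 82.02 and 117.4 CPM in fed mice, 62.1 or more in the daytime fast (median 107.4), 37.7, 62.5 and 42.3 at 18 h, and 37.97 and 39.3 in replicates 1 and 3 at 22 h, with replicate 2 inside the fed range. There 5 of 6 late libraries were below the fed ones, just short of a call (-0.80, SE 0.266, adjusted p = 0.0512). Without replicate 2 at 22 h, the high late library, Cd36 passed at -1.11 (adjusted p = 0.00288), and without replicate 2 at 18 h at -0.92 (adjusted p = 0.0259). DESeq2 called it late against fed, at -0.79, and over the alternatives its adjusted p ran from 0.00288 to 1. Markers of other cells in the stomach samples moved with the late fast as well: the pancreatic acinar sum reached 602 CPM in fed mice (median 242, led by Cela1) and 11.0 to 59.4 in the late fast (median 20.7), 4 of 4 falling with a median of -5.92, and 2 of 5 gastric markers fell (median -1.40). Neuron markers were 16.3 to 32.9 CPM in fed mice and 41.7 to 68.9 in the late fast (led by Snap25), 3 of 4 rising with a median of 1.08. Skeletal muscle markers, led by Acta1, were 288.6 to 1847 CPM in fed mice and 2026 to 3932 in the late fast, every late library above the fed ones for both lists. Of the 6 muscle markers edgeR called 0, with 0 at an unadjusted p under 0.05 and 0 by DESeq2 (median 1.38). Of the 5 adipocyte markers edgeR called 1 up and 1 down (median -2.98), with 4 at an unadjusted p under 0.05 and 4 by DESeq2. Their sum overlapped, at 37.05 to 74.53 CPM in fed mice and 41.41 to 66.71 in the late fast. Of the 5 hepatocyte markers edgeR called 1, down (median -2.79), with 4 at an unadjusted p under 0.05 and 1 by DESeq2. Fed replicate 3 of the stomach had a slope on exon length of -0.246, against -0.074 to 0.106 in the other stomach libraries. The part of all these in the stomach values of Cd36 and Angptl4 was not tested.

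Vldlr, a receptor for remnant particles, was 188.1, 217 and 182 CPM in brown fat of fed mice, 271, 315 and 323 after 2 h, 287, 317 and 328 after 8 h, 227, 330.2 and 202 after 12 h, 237, 299.5 and 292 after 18 h, and 136.5 and 194 after 22 h. Fed libraries lay under all but 1 of the 2 h and daytime libraries, and the 22 h libraries lay with or under the fed ones. Daytime against fed gave 0.52 (SE 0.176, adjusted p = 0.276, higher in 5 of 6), late against fed 0.13 (adjusted p = 0.632, or 0.48 with adjusted p = 0.363 without the 22 h libraries) and late against daytime -0.39 (SE 0.150, adjusted p = 0.0651). The last value of Vldlr passed without replicate 1 at 12 h (-0.42, adjusted p = 0.04996), replicate 3 at 12 h (-0.43, adjusted p = 0.0310) or replicate 3 at 22 h (-0.53, adjusted p = 0.0262). DESeq2 called it at -0.37 (adjusted p = 0.0475), and in all 5 of 23 alternatives made a call. Without both 22 h libraries Vldlr gave -0.03 (adjusted p = 0.987), and over the alternatives its adjusted p ran from 0.0262 to 1. In the olfactory bulb Vldlr was 90.1, 90.1 and 69.5 CPM in fed mice, 77.02 to 85.3 in the daytime fast (median 84.6) and 55.9 to 80.7 in the late fast (median 74.1). Vldlr fell there from daytime to late fast by 0.20 (SE 0.0698, adjusted p = 0.0316, below all daytime libraries in 4 of 6). Without replicate 1, 2 or 3 of every time the adjusted p was 0.125, 0.0789 and 0.0798, and with the lane as a factor the value was -0.21 (adjusted p = 0.0958), within a range of 0.0114 to 1 over its alternatives. The bulb libraries also differed in their slopes on exon length, which were 0.0069 to 0.067 in the daytime fast and below all of these in 5 of 6 late libraries. The lowest slope, -0.146 in replicate 1 at 18 h, belonged to the library with the least Vldlr, and the part of this in the Vldlr values was not tested.

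In the brain proper, fed libraries of Vldlr had 105.2, 88.95 and 94.3 CPM and every fasted library 88.3 or less, down to 16.5 in replicate 2 at 18 h. The groups did not overlap, yet no comparison passed (late against fed -0.62, SE 0.309, adjusted p = 0.197, lower in 5 of 5). Leaving out replicate 3 of every time left replicate 2 alone at 18 h, the library at 16.5 CPM, so the 18 h part of the late values of this alternative (-1.54 against fed, adjusted p = 0.000486, and -0.96 against daytime, adjusted p = 0.00565) is that 1 library, and these values are not taken as a change in Vldlr. Without replicate 2 of every time, and so without that library, late against fed was -0.30 (adjusted p = 0.372). Vldlr passed late against fed with no filter on low counts (-0.61, adjusted p = 0.0320), and daytime against fed without replicate 3 (-0.58, adjusted p = 0.0284) or with the 2 groups alone (-0.50, adjusted p = 0.0412), while other alternatives reached an adjusted p of 1. The fed brain libraries were also the richest in long transcripts, with slopes on exon length of 0.201, 0.150 and 0.163 against -0.172 to 0.113 in the fasted ones, and the part of this in the Vldlr values was not tested. In cerebellum Vldlr was even, at 153.1 to 185.6 CPM in all 18 libraries.

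Fabp4, the fatty acid binding protein of adipocytes, was 10505, 6991 and 9226 CPM in brown fat of fed mice, 6336 to 10536 in the daytime fast (median 7305), 8318, 10075 and 9647 at 18 h, and 18388 and 15858 at 22 h. As with Gpihbp1, the 22 h libraries stood alone and the rest overlapped. Fabp4 rose late against daytime by 0.66 (SE 0.149, adjusted p = 0.0106, above all daytime libraries in 2 of 5), and late against fed gave 0.51 (SE 0.182, adjusted p = 0.0556). Without the 22 h libraries these were 0.22 (adjusted p = 0.866) and 0.06 (adjusted p = 0.954), and without replicate 2 at 22 h the first was 0.61 (adjusted p = 0.0702). Late against fed passed for Fabp4 in brown fat without fed replicate 1 (0.63, adjusted p = 0.0460), without replicate 1, 2 or 3 at 12 h (0.52, 0.51 and 0.51, adjusted p = 0.0414, 0.0244 and 0.0493) or without replicate 3 at 22 h (0.56, adjusted p = 0.0448). DESeq2 called it at 0.53 (adjusted p = 0.0193), and in all 10 of 26 alternatives made a call. Over the alternatives the adjusted p of Fabp4 ran from 0.00318 to 1 late against fed and from 0.000273 to 1 late against daytime. In perigonadal fat Fabp4 was 10205, 13328 and 12355 CPM in fed mice, 13880 to 26748 in the daytime fast (median 17103) and 1964 to 28698 in the late fast (median 19141). All 6 daytime libraries were above the fed ones (0.60, SE 0.576, adjusted p = 0.726), as were 5 of 6 late libraries (0.63, SE 0.577, adjusted p = 0.533), the exception being the library poor in adipocyte markers.

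**Figure D3:**
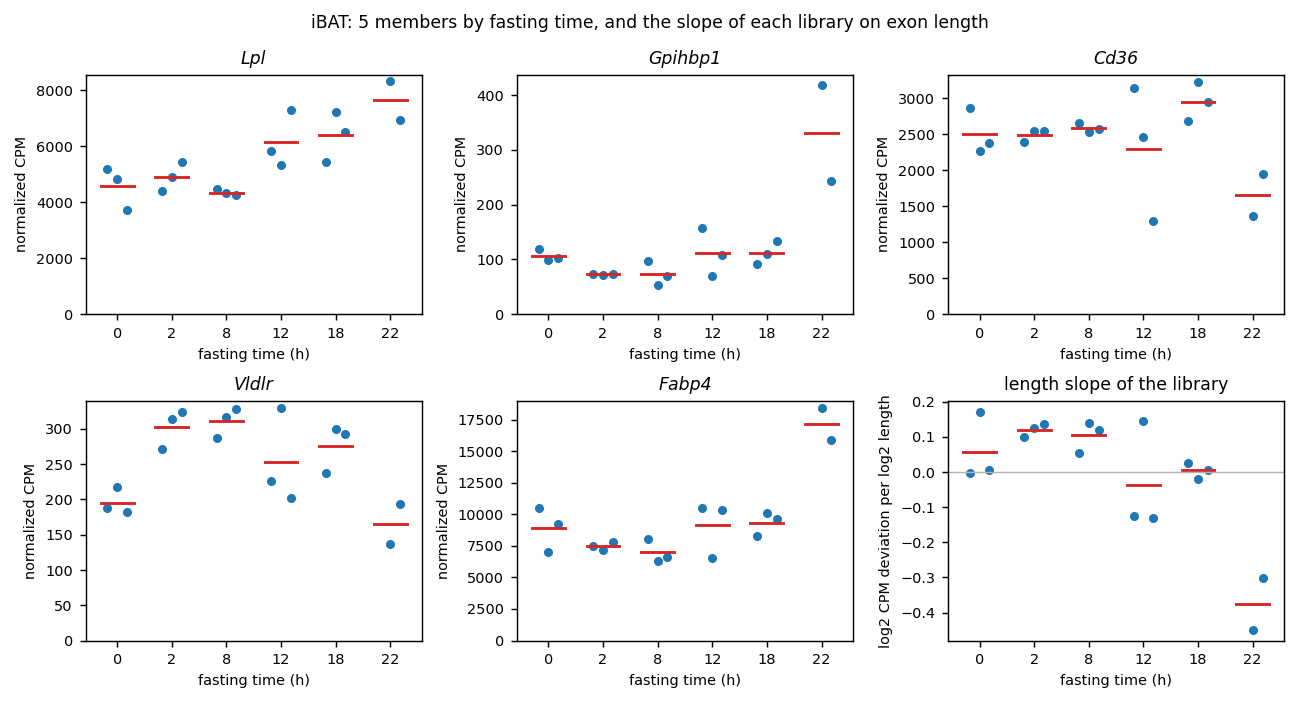
Normalized CPM of Lpl, Gpihbp1, Cd36, Vldlr and Fabp4 in brown fat by hours without food, with points for libraries and a red line for the mean, beside a panel of each library's slope of relative log2 level on log2 exon length. The 22 h libraries hold the highest Gpihbp1 (419 and 242.5 CPM) and Fabp4 (18388 and 15858 CPM) and the lowest slopes (-0.448 and -0.303).

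Counted over organs, late against fed, 7 of 61 pairs of gene and organ with enough counts passed (6 up and 1 down), or 11.5% of the pairs. Taken alone, 18 h against fed gave 5 calls (2 up and 3 down) and 22 h against fed 6 (5 up and 1 down). At 18 h Angptl4 was up and Vldlr down in the olfactory bulb (12% of all genes called), Angptl4 up and Cd36 down in the stomach (14.3%), and Angptl8 down in brown fat (0.275%). The share of all genes called at 18 h was 2.41% in the brain, 0.00626% in the cerebellum, 0% in the brainstem, 9.97% in the liver and 0% in both white depots. At 22 h Angptl4 was up in the cerebellum (3.96% of all genes called) and, with Lpl, Gpihbp1 and Fabp4, in brown fat, where Angptl8 was down. Those 5 calls fell in the 2 brown fat libraries poor in long transcripts, where 41% of all genes were called. Elsewhere at 22 h the share was 0.113% in the bulb, 6.88% in the brain, 0% in the brainstem, 0.24% in the stomach, 4.15% in the liver, 0.00609% in perigonadal and 0% in subcutaneous fat. Late against fed in brown fat, 4 of 8 genes passed, where 20.9% of all genes did, and DESeq2 called 5, the same 4 and Fabp4 (0.53). In the stomach it was 1 of 8 (15.3% of all genes), in the cerebellum 1 of 5 (0.344%) and in the brainstem 1 of 5 (0.0596%). Angptl4 was called in each of these organs. DESeq2 called it in brown fat, stomach and cerebellum but not in the brainstem, where it called 0 of 5 and gave Angptl4 no adjusted p. In the olfactory bulb edgeR called 0 of 5 genes (1.95% of all genes), with 2 at an unadjusted p under 0.05 and 1 called by DESeq2, Angptl4. In the brain it called 0 of 6 (11.2%), and in the liver 0 of 8 (10.6%), with 0 at an unadjusted p under 0.05 and 0 by DESeq2 in both. In perigonadal fat edgeR called 0 of 8 (0.00609% of all genes) and in subcutaneous fat 0 of 8 (0%), with 1 at an unadjusted p under 0.05 and 1 called by DESeq2 in each, Angptl8. Without the 22 h libraries of brown fat the total of 7 became 4.

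Daytime against fed, with the same fed mice, 2 of 61 pairs passed, Angptl4 up and Angptl8 down in brown fat, where 0.819% of all genes passed. In the other organs edgeR and DESeq2 called 0 genes of the pathway. The share of all genes called by edgeR was 0% in the olfactory bulb, 8.16% in the brain, 0% in the cerebellum, 0.00596% in the brainstem, 0% in the stomach, 8.89% in the liver, 0% in perigonadal fat and 0% in subcutaneous fat. At an unadjusted p under 0.05 there was 1 gene of the pathway in the cerebellum and 1 in subcutaneous fat, and 0 in each of the other organs with no call. The total of 2 for Angptl4 and Angptl8 became 0 without fed replicate 3 of brown fat, and 1 without its fed replicate 1 or any single replicate at 8 h.

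Late against daytime, 6 of 61 pairs passed (5 up and 1 down). They were Lpl, Gpihbp1 and Fabp4 in brown fat (3 of 8, against 23.3% of all genes, with 4 by DESeq2, which added Vldlr), Angptl4 and Vldlr in the olfactory bulb (2 of 5, against 29.3%) and Angptl4 in the brainstem (1 of 5, against 0.328%). In the brain edgeR called 0 of 6 (0% of all genes), with 0 at an unadjusted p under 0.05 and 0 by DESeq2. In the cerebellum it called 0 of 5 (0.795%) and in the liver 0 of 8 (2.70%), with 1 at an unadjusted p under 0.05 and 0 by DESeq2 in each. The stomach had 0 of 8 (3.96%), with 2 at an unadjusted p under 0.05 and 1 by DESeq2, Cd36. Perigonadal fat had 0 of 8 (0.00609%), with 1 and 1 (Angptl8), and subcutaneous fat 0 of 8 (0%), with 1 and 0. Without the 22 h libraries of brown fat the total of 6 became 3, as it did without replicate 2 at 22 h alone. With both left out none of the 3 was in brown fat, where edgeR then called 0% of all genes and 815 were at an unadjusted p under 0.05.

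When the late response was compared between organs, edgeR called 0 of the 8 genes in each of 4 pairs. Brown minus perigonadal fat called 0.086% of all genes, brown minus subcutaneous fat 0.464%, perigonadal minus subcutaneous fat 0% and liver minus brown fat 18.9%. At an unadjusted p under 0.05 there were 0, 1 (Angptl8), 0 and 1 (Angptl4) genes of the pathway. When 18 h alone was set against fed mice in both organs, with no 22 h library of brown fat, edgeR again called 0 of the 8 genes in each of the 3 pairs with brown fat. It then called 0.0144%, 0% and 2.84% of all genes in brown minus perigonadal, brown minus subcutaneous and liver minus brown fat, with 0, 1 (Angptl8) and 0 genes of the pathway at an unadjusted p under 0.05. DESeq2 was not run on these pairs.

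Other genes of the pathway were followed in 5 lists: partners of the lipase system, fatty acid uptake and binding, regulators of Lpl and Angptl4, targets of PPAR receptors and glucocorticoids, and lipogenic genes that insulin induces. In the liver, late against fed, where 10.6% of all genes passed, 6 of 13 lipogenic genes fell and 0 rose, with a median of -0.58 against 0.01 over all genes. Fasn fell by 1.85 (adjusted p = 0.0272), Gpam by 1.41 (adjusted p = 0.00991), Acly by 1.24 (adjusted p = 9.37e-05) and Thrsp by 0.91 (adjusted p = 0.0287). Among the partners 3 of 14 rose (median 0.06): Apoc3, an inhibitor of the lipase, by 0.59 (adjusted p = 0.00305), Apoa5, an activator, by 0.54 (adjusted p = 0.0129), and Apoc1 by 0.40 (adjusted p = 0.0238). Of 18 uptake genes 1 rose, Slc27a1 (0.62), and 4 fell (median -0.13), among them Acsl3 (-0.79) and Acsl5 (-0.76). Plin2 (-0.65) was the single one of 16 receptor targets that passed (median 0.10). Of 17 regulators edgeR called 0 (median 0.04), with 6 at an unadjusted p under 0.05 and 2 by DESeq2.

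In brown fat, late against fed, where 20.9% of all genes passed, 7 of 14 lipogenic genes fell and 1 rose (median -0.77 against -0.07 over all genes), led by Acly (-2.90, adjusted p = 2.76e-05), Pnpla3 (-1.78), Fasn (-1.46) and Acaca (-1.23). Among partners 5 of 11 fell and 1 rose (median -0.63), with Sorl1 at -1.93, Hspg2 at -1.54 and Apoe at 1.05. Of 18 uptake genes 3 rose and 4 fell (median -0.06), with Fabp2 at 4.29 and Acsl3 at -1.13. Of 16 regulators 2 rose and 4 fell (median -0.24), with Mlxipl at -1.93 and Klf15, a glucocorticoid target, at 1.11. Of 15 receptor targets 4 rose and 3 fell (median 0.25), with Cpt1b at -1.79, Acot1 at 1.58 and Fkbp5 at 1.47. The endothelial markers that fell in late brown fat are given above with Gpihbp1, and their part in these lists was not tested. Without the 22 h libraries fewer passed. These were 2 of 14 lipogenic genes (Acly -2.23 and Pnpla3 -1.86), 1 of 11 partners (Sorl1 -1.45), 1 of 18 uptake genes (Acsl5 -1.14) and 2 of 16 regulators (Mlxipl -1.66 and Klf15 1.27). Of 15 receptor targets edgeR then called 0, with 5 at an unadjusted p under 0.05, and the share of all genes called was 0.38%. DESeq2 was not run without these libraries.

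In the stomach, late against fed, where 15.3% of all genes passed, the receptor targets had the most calls: 5 of 14 rose and 1 fell (median 0.85 against -0.00 over all genes), led by Pdk4 (1.90, adjusted p = 0.00442) and Per1 (1.56). Of 22 uptake genes 1 rose and 3 fell (median -0.24), with Fabp2 at -2.92, and of 14 lipogenic genes 1 rose and 2 fell (median -0.34), with Lep at -6.08. The acinar, gastric, neuron, adipocyte and hepatocyte markers that moved in the late stomach libraries are given above with Cd36, and their part in these lists was not tested either. Hspg2 (0.83) was the single partner of 12 to pass (median -0.58) and Srebf1 (-0.43) the single regulator of 17 (median 0.12). In the olfactory bulb, where 1.95% of all genes passed, 2 of 13 receptor targets rose (median 0.21 against -0.01), Fkbp5 (0.48) and Tsc22d3 (0.43), and Klf15 (0.39) was the single regulator of 16. The bulb's other 3 lists had no call. The endothelial markers of the bulb summed to 129.1 to 148.9 CPM in fed mice and 88.1 to 143.2 in the late fast. Of these 10 markers edgeR called 4, all down, and DESeq2 called 4, with 7 at an unadjusted p under 0.05. Fed replicate 3 of the bulb held 343.1 CPM of hepatocyte markers, against at most 9.347 in the other bulb libraries. The part of these in the bulb lists was not tested. Tsc22d3 rose also in the brain (0.96), where 9 of 72 listed genes passed, beside 11.2% of all genes, among them Sorl1 (-0.80), Apoe (0.66) and Fabp5 (1.05). Pancreatic acinar markers of the brain summed to 7.27 to 16.8 CPM in fed mice and 23.5 to 109.8 in the late fast. Of these 5 markers edgeR called 3, all up, and DESeq2 5. Red cell markers summed to 45.7 to 109.4 CPM fed and 140.1 to 494.5 late, and edgeR called 0 of 5 and DESeq2 3. DESeq2 also called 3 of 10 endothelial markers, and edgeR 0. The part of these, and of the slopes given above with Vldlr, in the brain lists was not tested. In the cerebellum, brainstem, perigonadal fat and subcutaneous fat edgeR called 0 listed genes late against fed. At an unadjusted p under 0.05 there were 24 of 67, 14 of 68, 27 of 75 and 9 of 75 of them, and DESeq2 called 9, 2, 10 and 1. Over all genes, 2402 of 15976, 1655 of 16784, 3568 of 16412 and 867 of 16721 were at an unadjusted p under 0.05. The median of the lipogenic genes was -0.96 in perigonadal fat, against 0.05 over all genes, and -1.66 in subcutaneous fat, against -0.01. The adipocyte markers of the subcutaneous libraries ran from 173 to 11668 CPM. In perigonadal fat the late libraries had lower slopes on exon length than the fed ones. Of these late libraries, replicate 3 at 18 h and replicates 2 and 3 at 22 h were high in epididymal markers. The endothelial markers of perigonadal fat, led by Pecam1, summed to 615.2 to 788.7 CPM in fed mice and 166.8 to 635.2 in the late fast. Of these 10 markers edgeR called 0, with 7 at an unadjusted p under 0.05 and 3 called by DESeq2. The part of these in the 2 medians was not tested.

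Daytime against fed, 10 of 74 listed genes passed in brown fat, beside 0.819% of all genes. Of the lipogenic genes 3 of 14 fell (median -0.71 against -0.01), Acly (-1.82), Elovl6 (-0.83) and Me1 (-0.83), along with Sorl1 (-1.44), Acsl5 (-1.35) and Mlxipl (-1.27). In the liver 10 of 78 passed, beside 8.89% of all genes, among them Apoc3 (0.55), Slc27a1 (0.78), Acly (-0.61) and Plin2 (-0.47), and in the brain 5 of 72, beside 8.16% of all genes, among them Apoe (0.84). In the other 6 organs edgeR called 0 listed genes and DESeq2 called 0 except 1 in the cerebellum. Between 4 (of 79, stomach) and 10 (of 75, perigonadal fat) were at an unadjusted p under 0.05. Over all genes these were 757 of 16281 in the stomach and 1286 of 16412 in perigonadal fat.

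Late against daytime, 19 of 71 listed genes passed in the olfactory bulb, beside 29.3% of all genes, among them Ppargc1b (-0.96), Sgk1 (0.64) and Gpam (-0.56), and 4 of 78 in the liver, beside 2.70% of all genes, including Elovl6 (-1.04), Acacb (-0.76) and Acly (-0.63). In brown fat 23 of 74 passed, beside 23.3% of all genes, among them Cpt1b (-1.43) and Acot1 (1.42), and without the 22 h libraries edgeR called 0 of them, with between 0 and 4 per list at an unadjusted p under 0.05. In the stomach 6 of 79 passed, beside 3.96% of all genes, led by Ucp3 (2.32). In the cerebellum 2 of 67 passed, beside 0.795% of all genes, among them Fasn (0.38), and in the brainstem 1 of 68, beside 0.328%. In the brain, perigonadal fat and subcutaneous fat edgeR called 0, with 6 of 72, 18 of 75 and 2 of 75 at an unadjusted p under 0.05 and 0, 2 and 0 by DESeq2. Over all genes, 855 of 16749, 2468 of 16412 and 918 of 16721 were at an unadjusted p under 0.05.

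A table of RefSeq promoters on GRCm38.p6 held those of 4 of the 8 genes, here taken as the 250 bases upstream of each start. It had no entry for Lpl, Angptl4, Gpihbp1 and Fabp4. The 4 promoters were searched on both strands for 6 motifs, whose share among 32851 mouse promoters was 6.02% for C-A-C-G-T-G (the E-box bound by carbohydrate response factors), 12.4% for T-A-T-A-A-A, 33.8% for C-C-A-A-T, 14.0% for A-G-G-T-C-A (a nuclear receptor core site), 16.1% for A-G-A-A-C-A (a glucocorticoid receptor core site) and 32.7% for G-G-G-C-G-G (the SP1 site). The promoter of Angptl8 (chr9:21835260-21835509, plus strand, 58.8% GC) held none of them:

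Angptl8: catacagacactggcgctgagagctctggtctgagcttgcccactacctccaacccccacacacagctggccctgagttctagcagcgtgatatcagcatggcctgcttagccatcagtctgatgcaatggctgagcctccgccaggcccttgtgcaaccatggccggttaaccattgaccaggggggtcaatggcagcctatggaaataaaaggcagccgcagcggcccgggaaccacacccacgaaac

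The promoter of Cd36 (chr5:17835897-17836146, minus strand, 43.2% GC) held 1 nuclear receptor core site, on the reverse strand, 1 C-C-A-A-T and 2 SP1 sites:

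Cd36: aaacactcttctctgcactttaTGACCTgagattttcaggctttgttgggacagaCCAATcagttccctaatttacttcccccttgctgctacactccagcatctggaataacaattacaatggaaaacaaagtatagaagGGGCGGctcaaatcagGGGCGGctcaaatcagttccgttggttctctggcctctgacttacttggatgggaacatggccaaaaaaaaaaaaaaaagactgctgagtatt

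Lmf1 had 1 SP1 site on the reverse strand (chr17:25578924-25579173). Vldlr has 2 promoters, 1 with a glucocorticoid receptor core site on the reverse strand (chr19:27216234-27216483) and 1 with C-C-A-A-T and an SP1 site, both on the reverse strand (chr19:27216770-27217019). Whether any of these sites is bound was not tested.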

How the data were processed

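Messenger RNA of 9 organs from 18 mice was sequenced by the authors, and the values used are the deposited counts of reads per gene, made according to the submitters' processing notes with TopHat2 2.1.1 and HTSeq 0.9.1. The strand setting of the counting is not stated. Of 162 libraries, 5 that the study itself left out were not used (BRN 8 h replicate 3, BRN 18 h replicate 1, STM 12 h replicate 3, iBAT 22 h replicate 1 and psWAT 22 h replicate 2), leaving 157 with totals of 3045845 to 27801717 counts. Coordinates are those of GRCm38 (Gencode M21), while the study counted on Gencode M16.

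A gene entered the test of an organ when 3 or more retained libraries reached the CPM that 10 counts make in a library of median size, which held for 61 of the 72 pairs of gene and organ. Angptl8 and Gpihbp1 were not kept in the 4 brain organs, nor Fabp4 in OB, CBL and BST. Each organ was fitted over all 6 times with edgeR 4.0.16 (limma 3.58.1, R 4.3.3), using trimmed-mean factors and the quasi-likelihood test with robust dispersions, two-sided. A call is a Benjamini-Hochberg adjusted p under 0.05. The late fast is the mean of 18 and 22 h and the daytime fast the mean of 8 and 12 h. Values at 2 h are given without calls, apart from the number of calls at that time. Differences in the late response between organs were fitted over both organs. The order of organs was tested by a permutation test on mice, flipping signs over 100000 resamples of log2 CPM plus 0.5, two-sided, adjusted over 64 steps. Tables were handled in Python 3.11.15 with pandas 2.3.3 and numpy 2.4.6, and figures drawn with matplotlib 3.10.9.

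The genes, and the 5 lists of other genes and the marker lists, were chosen with earlier results of these data known. From each list up to 4 genes with the largest absolute log2 fold change among those that passed are named, and for each gene the 3 most alike by Pearson r. Alternatives were DESeq2 1.42.0, other factors, no filter, all libraries, the groups compared alone, a replicate block, a lane factor, a further threshold of 1 on the log2 fold change, single times, and leaving out libraries. The 2 h mice alone, the mean of all 5 fasting times and the omission of the 22 h libraries of brown fat, also between organs and in the correlations, were added after seeing the data.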

Additional observations from a re-analysis of the deposited data

Results flagged for a closer look

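Among the groups of 4 to 10 libraries, 10 held a library far from the others (8.20% of the groups), and chance flags about 1 in 20 groups, here about 6.1. In perigonadal fat replicate 2 at 22 h, the library rich in epididymal markers, was the lowest of the late fast for Gpihbp1 (11.5 CPM), Lmf1 (15.6), Cd36 (518.2), Vldlr (57.6) and Fabp4 (1963.8). Vldlr was lowest of the late fast in replicate 1 at 18 h of the olfactory bulb (55.9) and in replicate 2 at 18 h of the brain (16.5), and lowest of the daytime fast in replicate 1 at 12 h of the bulb (77.02). Cd36 was highest of the late fast in replicate 2 at 18 h of the brainstem (2.60) and lowest of the daytime fast in replicate 3 at 12 h of brown fat (1293.8).

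Some libraries that the study left out lay, as CPM without scaling factors, above every retained library of their organ as scaled within the organ. Listed are values from 4 counts or more of genes kept in that organ. In the brain these were Lmf1 in replicate 3 at 8 h (30.6 CPM, from 4 counts) and Lpl (96.5, from 27 counts) and Fabp4 (35.7, from 10 counts) in replicate 1 at 18 h. Single counts put Gpihbp1 and Fabp4 (7.651 CPM each) in the former and Cd36 (3.573) in the latter above the retained brain libraries too. In the stomach it was Lpl in replicate 3 at 12 h (451), and in brown fat Lpl (17990.9), Angptl4 (434.0) and Lmf1 (51.1) in replicate 1 at 22 h. On the scale over all libraries, the highest retained values were 464.7 for Lpl in stomach and 514.0 for Angptl4 and 65.52 for Lmf1 in brown fat, above those of the left-out libraries. The causes were not tested.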

How the results depend on the processing

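Late against fed, the 7 calls became 11 with DESeq2, 11 with no filter on low counts and 4 when the 2 groups compared were fitted alone. Added after seeing the data, the mean of all 5 fasting times gave 2 and the omission of the 22 h libraries of brown fat gave 4. The replicate block gave 8, 18 h alone 5 and 22 h alone 6. Daytime against fed, the 2 calls became 1 with the 2 groups alone, 1 with 8 h alone, 0 with 12 h alone in edgeR, and the replicate block gave 2. The mice at 2 h, which are not part of the daytime fast, gave 1 call of 61 pairs against fed mice, down. This comparison was added after seeing the data. Late against daytime, the 6 calls became 1 with a further threshold of 1 on the absolute log2 fold change, 3 without the 22 h libraries of brown fat (added), 9 with DESeq2 and 9 with no filter, and the block gave 7. Leaving out a library or replicate, over 84 settings each, gave 5 to 8, 0 to 3 and 3 to 7 calls. The 44 steps between organs that passed became 40 without scaling factors and were 44 with a pseudocount of 0.1 or 2. Between organs the calls were 0 with other factors, all libraries, the block, or 18 h alone without the 22 h libraries of brown fat (added). No call reversed its direction, and the causes were not tested.

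Replicates with the same number had a mean correlation across times of -0.0732 in subcutaneous fat to 0.159 in brown fat. In brown fat the mean for other numbers was -0.08, and 11 of 17 libraries were most like one of their own number. There 20 of 40 pairs with the same number lay over 0.1, and the lowest was -0.255. The numbers are not taken as pairs of mice, and the replicate block is given as an alternative. The lane could not be fitted in cerebellum and brainstem, with 1 lane each, nor in brown fat.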
